A study of Homo sapiens with 12 samples.

Results

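PPP1R15A and 9 further genes of the integrated stress response (ISR) were followed through U2OS cells that had lost transcription. The 10 genes were PPP1R15A, PPP1R15B, ATF4, DDIT3, DDIT4, TRIB3, CHAC1, ASNS, ATF5 and EIF2AK3, out of 22379 genes in the table. They were taken by name, and the set was chosen by the share of PPP1R15A mRNA left under triptolide, which was larger in NUP93-KO than in control cells. That pattern is therefore a description here and carries no test. All 10 passed the filter for testing, an untreated mean of 10 or more, as did 13811 genes in all.

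U2OS is a human osteosarcoma line. Its cells were transiently transfected with a Cas9 plasmid carrying a nontargeting guide (NONT), a guide against NUP93, a protein of the nuclear pore (NUP93-KO), or a guide against EXOSC5, a subunit of the RNA exosome (EXOSC5-KO), and were used as edited pools and not as single clones. Each of the 3 genotypes was harvested untreated or after 8 h in 1 μM triptolide, which blocks initiation by RNA polymerase II, with 2 replicates per group and 12 libraries in all. The labels do not say that replicates came from separate cultures, so the p-values below measure only the spread between these samples, which may be technical.

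In the ISR, kinases that sense stress phosphorylate the translation initiation factor eIF2. General translation slows while the mRNAs of ATF4 and a few other regulators are translated better. ATF4 then switches on genes for amino acid supply and for apoptosis, and it also switches on PPP1R15A, which brings protein phosphatase 1 (PP1) to eIF2 and ends the response. Most of these regulators are known for mRNAs that are made on demand and turn over fast.

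Values were mRNA abundances scaled to ERCC spike-in RNAs that had been added per counted cell, so they stand for mRNA per cell. Approximate depth was 8.56 to 11.92 M reads (M for mega) per library, and 1 read was worth between 0.490 and 1.76 units. The 2 NONT untreated libraries lay apart in scale, with the median gene 0.51 lower on the log2 scale in replicate 1 than in replicate 2, and every member was higher in replicate 2. The U2OS markers VIM, SPARC, COL1A1, CDH11, RUNX2 and ALPL were above 100 in every untreated library, whereas TWIST1 was listed at 0 in all 12 libraries and COL1A2 did not exceed 42.0. Of markers of other cell types, EPCAM reached 47.6, CDH1 69.7, PECAM1 9.99 and PTPRC 4.70. NUP93 mRNA was 1753 and 2489 in NONT and 1395 and 1432 in NUP93-KO, and EXOSC5 mRNA was 299 and 481 in NONT and 216 and 148 in EXOSC5-KO, all untreated. A guide that breaks the reading frame need not remove the mRNA, so these levels check the labels only in part.

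The promoters that held a motif are shown because transcription from them is what the drug shuts off. RefSeq windows of 300 bases (250 before and 50 after a start site, GRCh38.p14) matched all 10 members, in 17 windows. They were searched on both strands for TGATGNAA, the core of the C/EBP-ATF response element (CARE) that ATF4 binds with C/EBP partners, for TGACGTCA, the full cAMP response element (CRE), and for the endoplasmic reticulum stress element (ERSE, by name the CCAAT box with CCACG downstream). No letters of one motif overlapped another in these windows. CARE was found in 3 members, PPP1R15B, CHAC1 and ASNS, in 3 of the 17 member windows, and in 3.63% of 34796 windows of all genes. CRE was found in 1 member, PPP1R15A, in 1 of the 17 member windows, and in 1.84% of all windows. ERSE was found in 0 members and in 0.0776% of all windows. Below are the 250 bases before each start site, 5′ to 3′ on the gene's strand, with the match in capitals. They come from chr19:48872171-48872420 (plus strand) for PPP1R15A, chr1:204411818-204412067 (minus strand) for PPP1R15B, chr15:40953221-40953470 (plus strand) for CHAC1 and chr7:97872409-97872658 (minus strand) for ASNS. The match starts at −58 from the start site in PPP1R15A, −227 in PPP1R15B, −209 in CHAC1, where it reads on the opposite strand, and −68 in ASNS.
PPP1R15A: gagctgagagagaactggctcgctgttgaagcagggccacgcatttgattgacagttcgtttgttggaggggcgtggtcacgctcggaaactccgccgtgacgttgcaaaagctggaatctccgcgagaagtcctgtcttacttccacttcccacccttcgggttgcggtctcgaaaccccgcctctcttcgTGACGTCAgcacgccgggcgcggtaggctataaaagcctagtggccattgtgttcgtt
PPP1R15B: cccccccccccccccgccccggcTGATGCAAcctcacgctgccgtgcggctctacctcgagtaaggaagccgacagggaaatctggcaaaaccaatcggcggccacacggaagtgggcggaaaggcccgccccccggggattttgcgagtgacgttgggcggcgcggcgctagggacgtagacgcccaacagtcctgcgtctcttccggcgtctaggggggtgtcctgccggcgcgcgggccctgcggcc
CHAC1: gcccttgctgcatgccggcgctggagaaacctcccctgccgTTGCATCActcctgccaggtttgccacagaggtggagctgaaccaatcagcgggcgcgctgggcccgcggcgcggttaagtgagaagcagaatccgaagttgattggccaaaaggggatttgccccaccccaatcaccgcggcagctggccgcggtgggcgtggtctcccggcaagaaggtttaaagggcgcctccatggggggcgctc
ASNS: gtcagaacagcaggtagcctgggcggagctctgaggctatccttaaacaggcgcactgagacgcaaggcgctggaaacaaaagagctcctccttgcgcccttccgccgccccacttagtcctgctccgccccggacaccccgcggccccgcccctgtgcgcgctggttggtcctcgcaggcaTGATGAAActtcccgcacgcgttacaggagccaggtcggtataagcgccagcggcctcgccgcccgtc

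Among the regulators of eIF2 phosphatase, PPP1R15A (GADD34, the stress-induced PP1 partner; ENSG00000087074, chr19:48872212-48876059, plus strand, 3 exons) was abundant in all untreated libraries. NONT held 515 and 806, NUP93-KO 675 and 749.8, and EXOSC5-KO 963 and 872. After triptolide it was 5.60 in the first NONT library and was listed at 0 in the second. In NUP93-KO the treated libraries held 70.4 and 75.1, and in EXOSC5-KO they held 17.4 and 3.61. Both treated NUP93-KO libraries thus lay above every other treated library, whereas treated EXOSC5-KO overlapped NONT. As a share of the untreated mean, NONT kept 0.424% (0 to 1.09% when each treated library was set against each untreated one), NUP93-KO 10.2% (9.39 to 11.1%) and EXOSC5-KO 1.14% (0.374 to 2.00%). The NONT values rest on about 9.29 reads in the first library and none in the second, those in NUP93-KO on about 75.1 and 80.4 reads, and those in EXOSC5-KO on about 18.6 and 4.38 reads. Of the median gene NONT kept 31.4%, NUP93-KO 52.5% and EXOSC5-KO 47.2%, so PPP1R15A was lost more deeply than the median gene in each genotype. In bulk samples, fewer cells and less RNA per cell cannot be told apart beyond what the cell count behind the spike-in corrects.

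The loss in EXOSC5-KO, which did not choose the gene, was −6.64 ± 0.66 (log2 fold change ± SE; limma adjusted p = 2.95e-07), at percentile 0.340 of all genes tested. The fitted changes in the genotypes that chose it were −7.97 in NONT and −3.27 in NUP93-KO. Their difference was 4.70 on the log2 scale, while the median gene differed by 0.74. This difference chose the set, so it is a description with no test, and it uses a treated NONT library listed at 0. Against NUP93-KO, the response in EXOSC5-KO differed by −3.37. All of these contrasts share control or treated libraries. Within the untreated arms, the ratio of the means to NONT was 1.08 for NUP93-KO, where the libraries overlapped, and 1.39 for EXOSC5-KO, where both libraries lay above NONT.

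**Figure D1:**
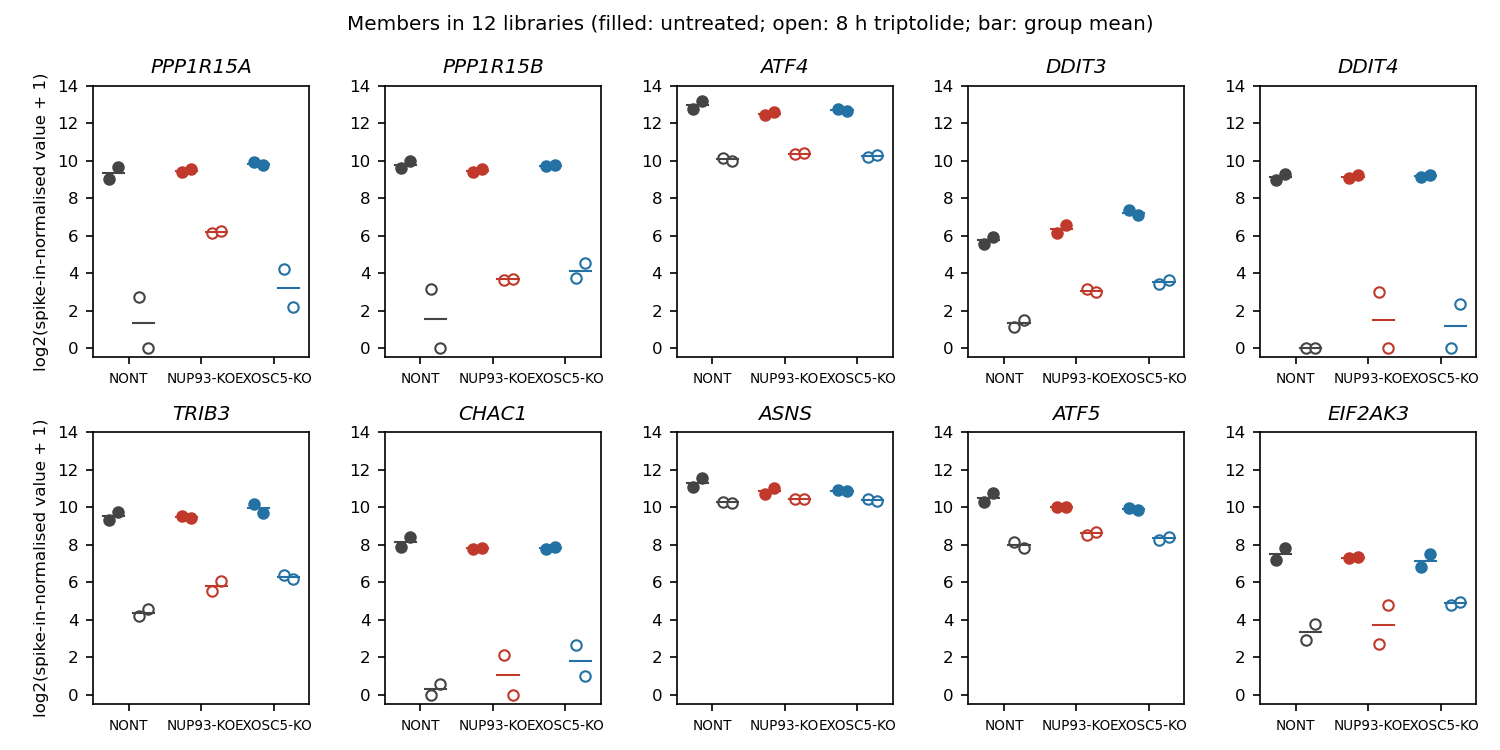
Each panel plots log2(value + 1) of 1 gene (vertical axis) in the 12 libraries by genotype (horizontal axis), with filled points for untreated, open points for 8 h of triptolide and bars for group means. PPP1R15A at 70.4 and 75.1 in treated NUP93-KO stands above its other treated libraries, while DDIT4 and CHAC1 fell to or near 0 in all genotypes and ASNS stayed at or above 1214.

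PPP1R15B (CReP, the constitutive PP1 partner; ENSG00000158615, chr1:204396492-204411887, minus strand, 2 exons) has the same role without the need for stress. Untreated, NONT held 799.6 and 999.6, NUP93-KO 672 and 755 and EXOSC5-KO 846 and 866. Triptolide left 7.83 and 0 (NONT), 11.4 and 11.97 (NUP93-KO) and 12.2 and 22.2 (EXOSC5-KO). Treated libraries of both knockouts lay above NONT, yet none held over 2.63% of an untreated library of its genotype. The mean share kept was 0.435% (NONT), 1.64% (NUP93-KO) and 2.01% (EXOSC5-KO). It changed in NUP93-KO by −5.82 ± 0.64 (limma adjusted p = 9.76e-07) and in EXOSC5-KO by −5.61 ± 0.64 (limma adjusted p = 1.25e-06). In NUP93-KO, then, the mean of PPP1R15A after the drug was 72.7 ± 3.31 (SD, n = 2) and that of PPP1R15B was 11.7 ± 0.425 (SD, n = 2), from untreated means of 712 ± 53.1 and 713 ± 59.0. The PPP1R15A values in this contrast chose the set, so the gap is a description with no test. The treated PPP1R15B values rest on few reads, so their small SD says little about how precise they are.

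The eIF2 kinase EIF2AK3 (PERK, the sensor of the endoplasmic reticulum; ENSG00000172071, chr2:88556741-88691518, minus strand, 17 exons) was the scarcest member per length. Before the drug it read 144 and 226 for NONT, 155 and 163 for NUP93-KO and 110.1 and 179 for EXOSC5-KO, and the genotypes overlapped. After 8 h NONT held 6.46 and 12.4, NUP93-KO 5.44 and 26.6 and EXOSC5-KO 26.7 and 29.9. Its mRNA changed by −4.18 ± 0.55 for NONT (limma adjusted p = 3.46e-06), −3.58 ± 0.55 for NUP93-KO (adjusted p = 3.60e-05) and −2.27 ± 0.55 for EXOSC5-KO (adjusted p = 0.00193). The call in EXOSC5-KO was lost when libraries were scaled to the same total (−1.49, limma adjusted p = 0.0595). Over the alternatives run, its change there ranged from −2.62 to −1.21, with a limma adjusted p of up to 0.116. The other eIF2 kinases were steadier, between −1.01 for EIF2AK1, the heme-regulated kinase, and −0.86 for EIF2AK4 (GCN2, the sensor of uncharged tRNA) in NONT.

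ATF4 (ENSG00000128272, chr22:39519695-39522683, plus strand, 3 exons), the transcription factor at the centre of the response, was the most abundant member per length. Its untreated values were 6983 and 9265 (NONT), 5552 and 6229 (NUP93-KO) and 6971 and 6467 (EXOSC5-KO). With triptolide it read 1155 and 1009 for NONT, 1298 and 1364 for NUP93-KO and 1167 and 1284 for EXOSC5-KO. Its mRNA thus stayed above 1000 after 8 h without new transcription. NONT kept 13.3%, NUP93-KO 22.6% and EXOSC5-KO 18.2%, and it changed by −2.90 ± 0.18, −2.14 ± 0.18 and −2.45 ± 0.18 (limma adjusted p = 8.93e-10, 6.89e-08 and 1.43e-08). The annotation holds 4 pseudogenes named for ATF4, with which reads could be shared, so its level is uncertain to that extent.

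ATF5 (ENSG00000169136, chr19:49928702-49933935, plus strand, 3 exons), a relative of ATF4 that also drives stress genes, was among the better kept. Untreated, NONT held 1235 and 1734, NUP93-KO 1052 and 1019.6 and EXOSC5-KO 999.9 and 924. Triptolide left 288 and 223 (NONT), 372 and 411 (NUP93-KO) and 307 and 346 (EXOSC5-KO). Both knockouts were therefore below NONT without the drug and above it with the drug, with no overlap. ATF5 changed by −2.53 ± 0.21, −1.40 ± 0.21 and −1.56 ± 0.21, in the same order of genotypes (limma adjusted p = 1.94e-08, 3.05e-05 and 9.06e-06).

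DDIT3 (CHOP, a pro-apoptotic transcription factor; ENSG00000175197, chr12:57516588-57521737, minus strand, 4 exons) was low in control cells. Before the drug it read 46.4 and 60.0 for NONT, 69.3 and 93.6 for NUP93-KO and 164 and 136 for EXOSC5-KO, so that the 3 genotypes did not overlap. After 8 h NONT held 1.20 and 1.83, NUP93-KO 7.85 and 6.93 and EXOSC5-KO 9.82 and 11.6, and these kept the same order. DDIT3 changed by −4.43 ± 0.47, −3.28 ± 0.47 and −3.69 ± 0.47 (limma adjusted p = 3.01e-07, 1.72e-05 and 4.50e-06). The treated NONT value rests on about 2.00 to 3.74 reads, so the size of that fall depends on the pseudocount. DDIT3 overlaps MIR616 and an unnamed protein-coding gene on its own strand.

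Of the downstream targets, TRIB3 (a pseudokinase that restrains ATF4; ENSG00000101255, chr20:362835-397559, plus strand, 4 exons) was at 629 and 871 (NONT), 735 and 678 (NUP93-KO) and 1170.3 and 839 (EXOSC5-KO) without the drug. With triptolide it read 17.4 and 22.5 for NONT, 45.5 and 67.2 for NUP93-KO and 82.5 and 71.5 for EXOSC5-KO. All 4 treated knockout libraries lay above both of NONT, at 2.82 and 3.86 times its mean in NUP93-KO and EXOSC5-KO, while untreated libraries overlapped. TRIB3 changed by −5.16 ± 0.29, −3.65 ± 0.29 and −3.67 ± 0.29 (limma adjusted p = 2.26e-10, 3.00e-08 and 2.24e-08). The share kept was 2.66% (NONT), 7.98% (NUP93-KO) and 7.66% (EXOSC5-KO).

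DDIT4 (REDD1, an inhibitor of mTORC1; ENSG00000168209, chr10:72273919-72276036, plus strand, 3 exons) was the member lost most completely. Its untreated values were 508 and 629.6 (NONT), 534 and 614 (NUP93-KO) and 566 and 605 (EXOSC5-KO), close in all genotypes. After triptolide it was listed at 0 in both NONT libraries, at 6.98 and 0 for NUP93-KO, and at 0 and 4.12 for EXOSC5-KO. With a floor of 3 reads per library, its log2 change in NONT lies at or under −7.75, and no fold is given against the listed 0. The falls in NUP93-KO (−7.67 ± 0.78, limma adjusted p = 4.06e-07) and EXOSC5-KO (−8.02 ± 0.78, limma adjusted p = 2.18e-07) each rest on 1 library above 0.

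CHAC1 (an enzyme that degrades glutathione; ENSG00000128965, chr15:40952962-40956512, plus strand, 3 exons) was also near 0 after the drug. Untreated, NONT held 237 and 338, NUP93-KO 216 and 229.8 and EXOSC5-KO 215 and 239. Triptolide left 0 and 0.455 (NONT), 3.25 and 0 (NUP93-KO) and 5.20 and 1.00 (EXOSC5-KO). The mean share kept was 0.0791%, 0.730% and 1.37%, from at most about 5.56 reads per library, and its falls passed the limma test in NUP93-KO (adjusted p = 2.77e-07) and EXOSC5-KO (adjusted p = 8.72e-07).

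ASNS (asparagine synthetase, the classic amino acid response target; ENSG00000070669, chr7:97851677-97872542, minus strand, 13 exons) was the exception. Before the drug it read 2174 and 3035 for NONT, 1699 and 2112 for NUP93-KO and 1935 and 1888 for EXOSC5-KO. After 8 h NONT held 1271 and 1214, NUP93-KO 1394 and 1374 and EXOSC5-KO 1376 and 1282. It kept 47.7%, 72.6% and 69.5%, more than the median gene in every genotype. It changed by −1.05 ± 0.19 in NONT (limma adjusted p = 0.000100) and −0.52 ± 0.19 in EXOSC5-KO (limma adjusted p = 0.0249), and its change of −0.45 ± 0.19 in NUP93-KO did not pass (limma adjusted p = 0.0557). The call in EXOSC5-KO was lost without any 1 of its 4 libraries (limma adjusted p = 0.0748 to 0.136). When libraries were scaled to the same total, the change of ASNS was 0.29 (NONT), 0.12 (NUP93-KO) and 0.27 (EXOSC5-KO), so its direction depends on the spike-in scale. The annotation also holds pseudogenes named for ASNS, with which reads could be shared.

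**Figure D2:**
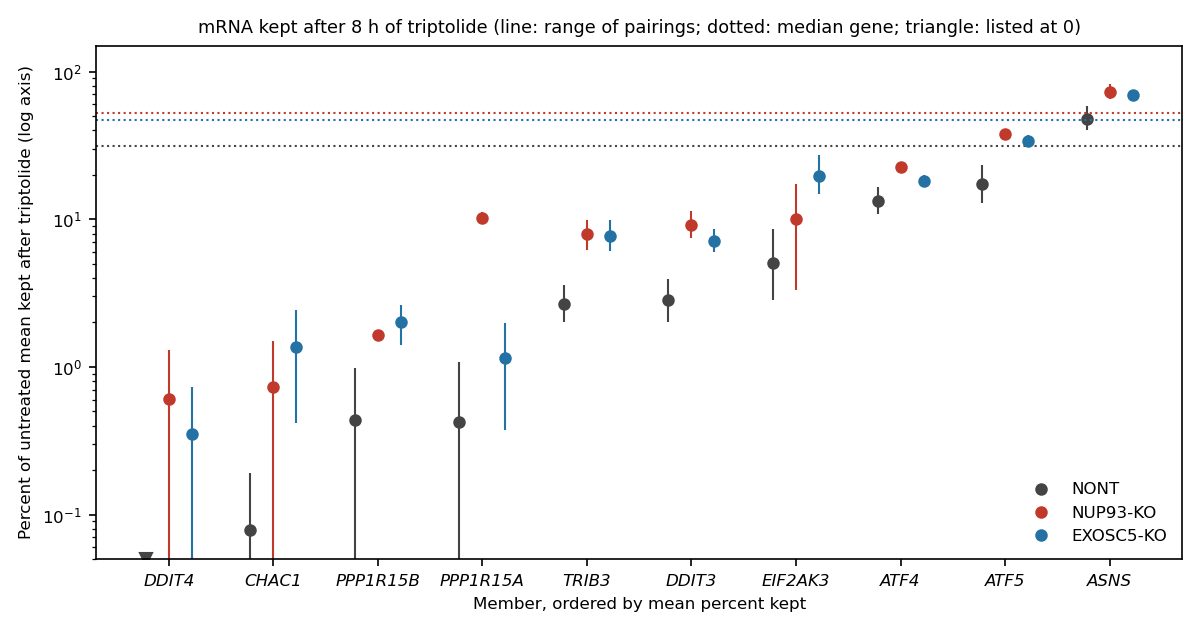
The vertical axis, on a log scale, gives the percent of the untreated mean that each member (horizontal axis) kept after 8 h of triptolide, with points for the 3 genotypes, lines for the range over the 4 pairings and dotted lines for the median gene. Members other than ASNS lie below the median gene of their genotype (31.4%, 52.5% and 47.2%), and PPP1R15A at 10.2% in NUP93-KO stands apart from its 0.424% in NONT. Lines that reach the lower edge go to 0.

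The counts and medians that follow leave PPP1R15A aside wherever NONT or NUP93-KO values enter, since those chose the set. A smaller share than that of the median gene was kept by 8 of 9 members in NONT (median share 2.85%), 8 of 9 in NUP93-KO (9.08%) and 9 of 10 in EXOSC5-KO (7.40%). Triptolide lowered 9 of 9 members in NONT, where 90% of all genes were called lower, and 8 of 9 in NUP93-KO, where 55.1% were. In EXOSC5-KO 10 of 10 were lowered, beside 64.3% of all genes. In NONT the count is near that background, while the median log2 change of the members was −4.43, also with DDIT4 at its bound, against −1.62 for all genes. In NUP93-KO it was −3.58 and −3.68 in the EXOSC5 knockout, against −0.92 and −1.08 for all genes. Scaling libraries to the same total moved the median of all genes to −0.32, −0.36 and −0.29 for these genotypes, and in NONT the calls over all genes then split into 5270 lower and 2105 higher in place of 12427 and 7.

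Per length, the untreated order was ATF4 (4870.5 per kb over the 6 libraries), ASNS (897), ATF5 (578), TRIB3 (348), DDIT4 (330.4), PPP1R15A (325), CHAC1 (162), PPP1R15B (156), DDIT3 (105) and EIF2AK3 (35.9). The ranges over libraries of ATF4 (3913 to 6529) did not reach those of ASNS (712 to 1272). Neighbours in this order from ASNS to DDIT3 overlapped in their ranges, and EIF2AK3 (24.3 to 49.9) lay under all others. Per length means that values were divided by the length of the canonical transcript, which need not be the one these cells use.

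The difference in response between EXOSC5-KO and NONT was tested for the 9 members other than PPP1R15A, and 0 of 9 passed, where 0.333% of all genes passed in either direction. The 8 differences other than that of DDIT4, listed at 0 in both treated NONT libraries, were positive, as was the median of all genes at 0.57. A listed 0 in 1 treated NONT library also enters the differences of PPP1R15B and CHAC1 from NONT in either knockout. PPP1R15B had the largest, at 2.62 ± 0.91 (95% interval 0.70 to 4.54, limma adjusted p = 0.174), followed by EIF2AK3 at 1.91 ± 0.78, CHAC1 at 1.87 ± 0.94 and TRIB3 at 1.48 ± 0.41 (limma adjusted p = 0.130). At an unadjusted p under 0.05 the count was 4 (PPP1R15B, EIF2AK3, TRIB3 and ATF5), beside 23.5% of all genes. The calls rest on the NONT libraries. Without NONT untreated replicate 1, 4 of 9 members were called (ASNS, TRIB3, ATF4 and ATF5), beside 38.5% of all genes. Without NONT triptolide replicate 1, 2.97% of all genes were called, and PPP1R15B read 4.19. Its treated NONT group is then the listed 0 of replicate 2 alone, without the 7.83 of replicate 1. The size of 4.19 therefore depends on the pseudocount, and it is not read as a call. In both fits the lone sample of a group is assumed to vary like the others. The same contrast for NUP93-KO is a description, with 2.42 for PPP1R15B, 1.51 for TRIB3, 1.14 for DDIT3, 1.12 for ATF5 and for CHAC1, 0.75 for ATF4, 0.60 for EIF2AK3 and 0.59 for ASNS, against 0.74 for all genes. Between the knockouts limma called 0 of these 9 members, beside 0.0217% of all genes, and 0 at an unadjusted p under 0.05, beside 4.32%, and EIF2AK3 had the widest tested gap at 1.31 (95% interval −0.35 to 2.97). As plain levels after the drug, 6 of 9 members in NUP93-KO and 8 of 9 in EXOSC5-KO had both libraries above both of NONT, which 75.6% and 75.1% of all genes did as well.

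Without the drug, the question was whether either knockout by itself changed the mRNAs of the response. Only polyadenylated mRNA was measured, so eIF2 phosphorylation and ATF4 protein were not seen, and activation of the response was not tested. On the spike-in scale limma called 0 of these 9 members in NUP93-KO, where 0.0217% of all genes were called, and 0 of 9 in EXOSC5-KO, where 0.521% were. The fit takes the spread of each gene from all 12 libraries, treated ones included. The SE was 0.64 for PPP1R15B, 0.66 for CHAC1 and 0.78 for DDIT4, beside 0.18 for ATF4, 0.19 for ASNS and 0.21 for ATF5. For members near 0 after the drug, a missing call therefore says little about untreated cells. At an unadjusted p under 0.05 the counts were 3 (ATF4, ATF5 and ASNS) and 3 (DDIT3, ATF5 and ASNS), beside 4.2% and 8.49% of all genes. DDIT3 stood highest in EXOSC5-KO, at 1.48 ± 0.47 and 2.82 times the NONT mean (limma adjusted p = 0.297). ATF5 (−0.61 ± 0.21, limma adjusted p = 0.372), ASNS (−0.43 ± 0.19, adjusted p = 0.561) and ATF4 (−0.26 ± 0.18, adjusted p = 0.841) had both EXOSC5-KO libraries below NONT. In NUP93-KO the same 3 genes read −0.50 ± 0.21, −0.44 ± 0.19 and −0.45 ± 0.18, each with a limma adjusted p of 1.00. Both libraries of NUP93-KO lay above NONT for 1 member and below for 5, which 7.93% and 12.8% of all genes did, and in EXOSC5-KO for 1 and 3 members, which 19.2% and 9.2% did.

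These calls changed with the scaling. With every library set to the same total, ATF4 was 6037 and 5514 (NONT), 4527 and 4602 (NUP93-KO), and 4737 and 4721 (EXOSC5-KO). ATF5 was then 1068 and 1032, 857 and 753, and 679.5 and 675 in the same order. ASNS was 1879 and 1806, 1385 and 1560.1, and 1315 and 1378, and DDIT3 was 40.1 and 35.7, 56.5 and 69.1, and 111 and 98.9. In EXOSC5-KO this called 3 members lower, ATF5 (−0.63 ± 0.10, limma adjusted p = 0.00526), ASNS (−0.45 ± 0.09, adjusted p = 0.0175) and ATF4 (−0.29 ± 0.06, adjusted p = 0.0298), where 2.09% of all genes were called lower and 2.79% higher. DDIT3 read 1.45 ± 0.38 and did not pass (limma adjusted p = 0.0584). In NUP93-KO ATF4 alone among members was called (−0.34 ± 0.06, adjusted p = 0.0379), beside 0.355% of all genes called lower. With 1 of the 4 libraries left out in turn as well, ATF5 in EXOSC5-KO passed 4 of 4 times (adjusted p = 0.0399 to 0.0482) while ASNS and ATF4 passed 0 of 4 times (0.0772 to 0.117 and 0.0532 to 0.203).

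**Figure D3:**
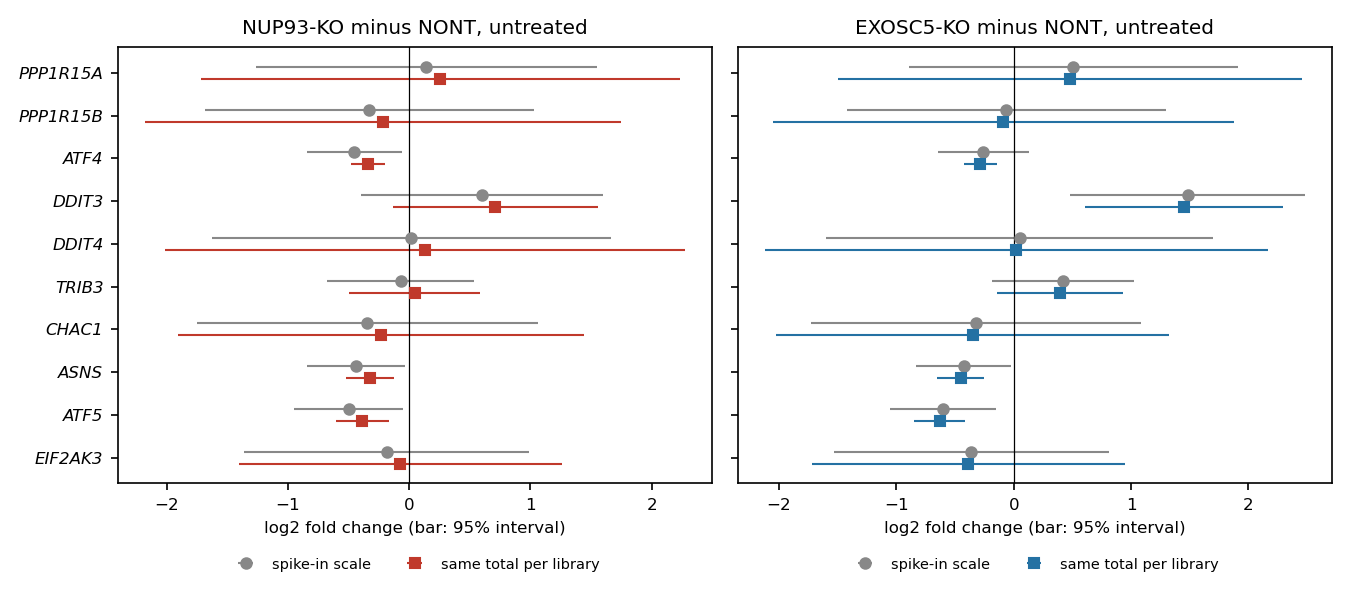
Log2 fold change of each knockout against NONT without the drug (horizontal axis) for the 10 members (vertical axis), with 95% intervals, on the spike-in scale (grey circles) and with the same total per library (coloured squares). The squares of ATF4, ATF5 and ASNS have shorter bars than the circles. They lie close to the circles in EXOSC5-KO and to the right of them in NUP93-KO (−0.34, −0.39 and −0.33 against −0.45, −0.50 and −0.44). DDIT3 in EXOSC5-KO lies to the right at 1.48 and 1.45, and the bars of members near 0 after the drug are wide on both scales.

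The further genes of the pathway were read on the same scales from lists by role. On the spike-in scale, limma called 0 genes of any list in either untreated contrast, with 10 of 100, EIF2AK3 counted among them as a kinase, at an unadjusted p under 0.05 in NUP93-KO, beside 4.2% of all genes, and 12 in EXOSC5-KO, beside 8.49%. With equal library totals, 4 of 8 ATF4-driven amino acid transporters and 5 of 13 ATF4 targets in amino acid metabolism were called lower in EXOSC5-KO, and 0 higher, beside the 2.09% of all genes. Median-of-ratios scaling called 5 and 7 of them lower, beside 3.61% of all genes, and the same mitochondrial mRNA sum 5 and 7, beside 5.21%. The transporters were SLC1A5, SLC7A5, SLC1A4 and SLC6A9, and the enzymes were MTHFD2, SHMT2, PHGDH, PSAT1 and GOT1, named here after their values were seen. MTHFD2, the mitochondrial one-carbon enzyme, was 3450.4 and 3621 (NONT), 2937 and 2873 (NUP93-KO), and 2247 and 2336 (EXOSC5-KO), a change of −0.63 ± 0.05 in EXOSC5-KO (limma adjusted p = 0.000229) and −0.28 ± 0.05 in NUP93-KO (adjusted p = 0.0353). SLC1A5, the glutamine transporter, was 6073 and 6067 in NONT and 4320.3 and 4408 in EXOSC5-KO (−0.48 ± 0.05, limma adjusted p = 0.000868). In EXOSC5-KO, MTHFD2, SHMT2, PHGDH, SLC1A5 and SLC7A5 stayed called with each of the 4 libraries left out in turn. In NUP93-KO SLC7A5 was also called (−0.37 ± 0.05, limma adjusted p = 0.00817). With libraries left out in turn there, MTHFD2 moved between −0.32 and −0.25 and SLC7A5 between −0.45 and −0.29, and neither call held throughout. The mitochondrial sum called neither gene in NUP93-KO.

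For a list of other ISR targets the calls went the opposite way on this scale. Of 15 tested, 5 were called higher in EXOSC5-KO and 0 lower, beside 2.79% of all genes. They were GDF15, a secreted stress cytokine, SQSTM1, the autophagy receptor p62, GADD45A, TNFRSF10B, the death receptor DR5, and MAP1LC3B. Median-of-ratios scaling also called 5 higher, beside 2.06% of all genes. With the same mitochondrial mRNA sum, however, 0 were called higher, beside 0.550% of all genes, and 1, EIF4EBP1, lower, beside 5.21%. GDF15 was 60.3 and 58.4 (NONT), 161 and 158 (NUP93-KO), and 172 and 139 (EXOSC5-KO). It changed by 1.41 ± 0.24 in NUP93-KO (limma adjusted p = 0.0265), beside 0.615% of all genes called higher, and by 1.36 ± 0.24 in EXOSC5-KO (adjusted p = 0.0104). In NUP93-KO its change was 1.39 to 1.44 with a library left out in turn, where the call did not hold. The mitochondrial sum called 0 genes of this list in NUP93-KO. SQSTM1 was 2689 and 3061, 4719.8 and 4357, and 4944 and 4954 in the same order. It was also called higher in NUP93-KO, at 0.66 ± 0.12 (limma adjusted p = 0.0327). With a library left out in turn its change there was 0.57 to 0.75, and the call did not hold. These genes answer to other regulators than ATF4 as well, GADD45A, TNFRSF10B and GDF15 to p53 among them. With 1 library left out in turn, GADD45A and TNFRSF10B passed 0 of 4 times in EXOSC5-KO, GDF15 1 of 4, MAP1LC3B 2 of 4 and SQSTM1 3 of 4. Of the aminoacyl-tRNA synthetases, YARS1 was lower and SARS1 higher. With median of ratios 5 of 20 were called lower, beside 3.61% of all genes, and with the mitochondrial sum 4, beside 5.21%, and 0 higher on either. Of 18 genes of the ATF6 and IRE1 arms of the unfolded protein response EDEM1 alone was called, higher at 0.53 ± 0.07 (limma adjusted p = 0.00263), and the mitochondrial sum called 0 higher and 1, HYOU1, lower. The eIF2 kinases, eIF2 and eIF2B subunits, PP1 catalytic subunits and other ISR transcription factors had 0 calls with the same total.

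After triptolide the lists are to be read beside the 90%, 55.1% and 64.3% of all genes called lower in the 3 genotypes, which several of their counts are near or under. Transcription factors of the response other than the members had medians of −3.98 (NONT), −3.14 (NUP93-KO) and −3.07 (EXOSC5-KO), with 11 of 11, 10 of 11 and 11 of 11 called lower. Their extremes in NONT were CEBPB, an ATF4 partner, at −6.80 ± 0.32 and 0.768% kept, and NUPR1, a stress-induced chromatin protein, at −1.32 ± 0.22 and 40.1% kept. The enzymes of amino acid metabolism were kept better than the median gene, with a median of −1.21, −0.38 and −0.49, and 13, 5 and 7 of 13 called lower. They ran in NONT from GOT1 (−1.75 ± 0.21) to ALDH1L2 (−0.69 ± 0.30). Aminoacyl-tRNA synthetases were much alike, with medians of −1.18, −0.39 and −0.62, with 20, 9 and 15 of 20 called lower and with FARSA (−2.00 ± 0.25) and WARS1 (−0.81 ± 0.21) at the ends.

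The amino acid transporters lay lower than the enzymes, with 8 of 8 called in each genotype and medians of −1.87, −1.07 and −1.22. SLC38A2, the regulated System A transporter, kept 6.48%, 7.46% and 11.8%, while SLC7A11, the cystine transporter, kept 37.1%, 68.5% and 44.7%. Subunits of eIF2 and eIF2B had medians of −1.36, −0.50 and −0.70, with 8, 4 and 7 of 8 called, from EIF2B4 (−1.69 ± 0.21 in NONT) to EIF2B3 (−0.98 ± 0.21). The PP1 catalytic subunits that PPP1R15A and PPP1R15B recruit were called in 3, 2 and 2 of 3, with PPP1CC at −2.16 ± 0.19 and PPP1CA at −0.97 ± 0.19 in NONT. The eIF2 kinases, EIF2AK3 included, had medians of −1.01, −0.67 and −0.57 and 4, 2 and 3 of 4 called. Other ISR targets had 14, 9 and 12 of 15 called lower, VLDLR not among them at 1.29 ± 1.27 in NONT, with medians of −1.71, −0.92 and −1.33, and ran from SESN2, a sestrin that restrains mTORC1 (−6.12 ± 0.32 in NONT), to MAP1LC3B (−0.84 ± 0.19). The other arms of the unfolded protein response had 18, 6 and 11 of 18 called and medians of −1.31, −0.15 and −0.58, with XBP1, the IRE1 substrate, at −6.18 ± 0.25 and EDEM1 at −0.87 ± 0.21 in NONT.

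**Figure D4:**
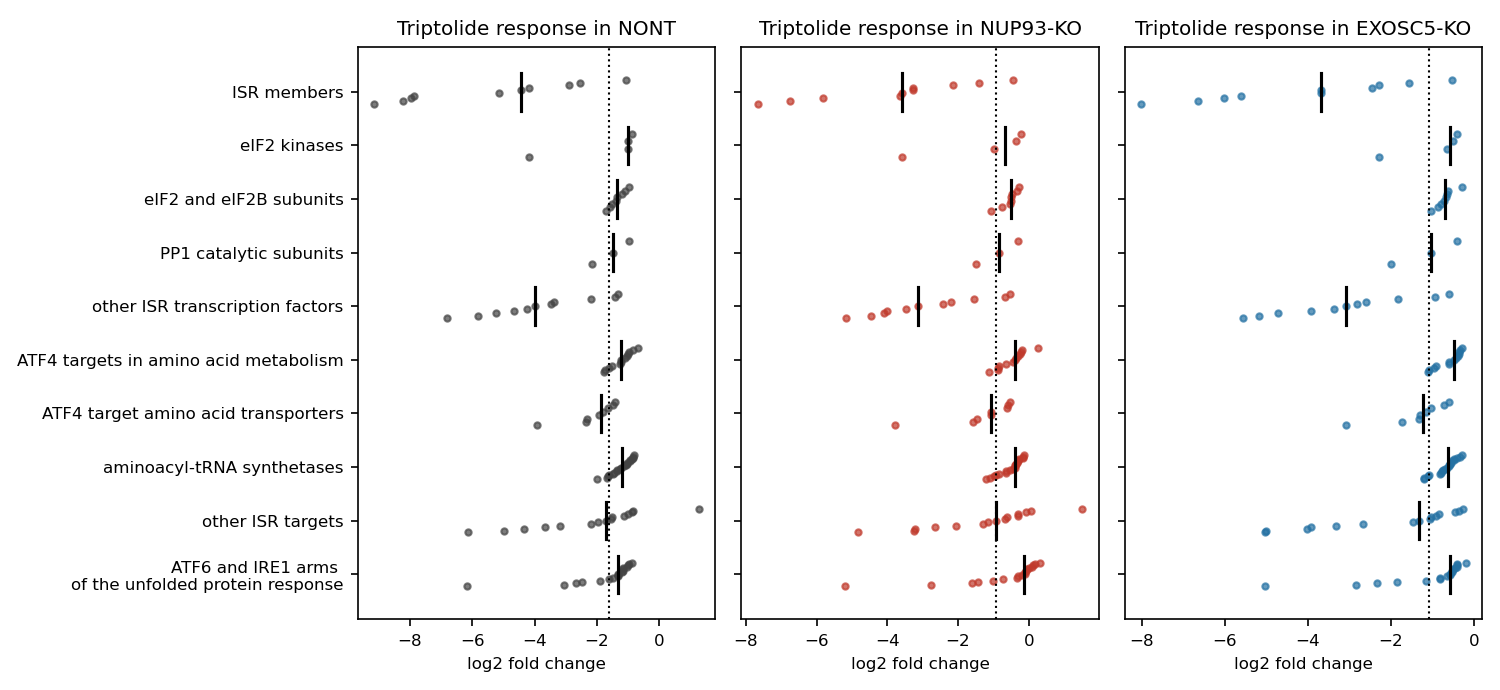
Each point is the log2 fold change after triptolide (horizontal axis) of 1 gene in the lists of the vertical axis, with black bars for list medians and dotted lines for the median of all genes (−1.62, −0.92 and −1.08). The medians of the ISR members (without PPP1R15A in NONT and NUP93-KO) and of the other ISR transcription factors lie well to the left of the dotted line in each genotype, and those of the enzymes, synthetases and eIF2 subunits lie to the right of it.

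The genes whose pattern over the 12 libraries was most like that of PPP1R15A, by Pearson correlation of log2(value + 1) among 10380 genes with an untreated mean of at least 100, were DTX1 (r = 0.987), IFFO2 (0.983), KIF21B (0.981), NAT9 (0.981) and C9orf85 (0.981). The libraries share treatment and depth, which raises all such values. The ranking also uses the NONT and NUP93-KO values of PPP1R15A that chose the set, so it is a description with no test. DTX1, a ubiquitin ligase of Notch signalling, was 84.3 and 109.9 in NONT, 13.7 and 6.04 in treated NONT, 43.2 and 36.5 in treated NUP93-KO and 24.3 and 16.0 in treated EXOSC5-KO. Of the 8 other members above that level PPP1R15B was the closest, with r = 0.932 at rank 2012, and DDIT3 was under it and not compared.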

How the data were processed

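Polyadenylated RNA of 12 U2OS libraries was sequenced in 6 groups of 2, grouped by their labels. The authors used kallisto 0.46.1 (GRCh38), tximport to reach genes, a filter for protein-coding genes, and DESeq2 size factors taken from the ERCC transcripts. The deposited values are thus a spike-in-normalised signal per gene and not read counts. Low values were whole multiples of 1 read, within 0.02 reads, in only 17.6% to 27.0% of cases, so no count model was used, and an error in the cell count moves a whole library. Reads shared by near-identical genes are split by kallisto.

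The table held 22471 rows, 92 of them ERCC transcripts. Gene IDs were given symbols, coordinates and lengths from GENCODE 44 (19584 of 22379 matched). Values were analysed as log2(value + 1), which understates the change of low genes. A model with 6 group means over all 12 libraries was fitted with limma 3.58.1 in R 4.3.3 (lmFit, eBayes with trend) to 13811 genes, with 8 two-sided contrasts, Benjamini-Hochberg adjustment over all genes and a threshold of 0.05. The script recovered known changes in simulated data with few genes lowered and a log-normal spread. That setting is simpler than the broad loss and values near 0 here, so it checks the code only. Python 3.11.15, pandas 2.3.3 and matplotlib 3.10.9 made summaries and figures.

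The members, lists and tests were chosen with earlier results of these data known. All 10 members are named, and in each list the genes with the largest and smallest change after triptolide in NONT with an untreated mean of at least 100. NUP93 and EXOSC5 check the labels. For PPP1R15A a test is given only for the response in EXOSC5-KO, and member counts that use NONT or NUP93-KO leave it out. No sequences of the members' proteins were used here. Replicate numbers are shared between groups but did not pair libraries: over 15 pairs of groups, deviations of same-numbered replicates correlated at r = −0.05 to 0.04, and 0 pairs were over 0.1. Alternatives were other pseudocounts, filters, scalings, spread estimates, a replicate block and each library left out.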

Additional observations from a re-analysis of the deposited data

How the results depend on the processing

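Counts of members called were 9 and 8 of 9 for triptolide in NONT and NUP93-KO, without PPP1R15A, and 10 of 10 in EXOSC5-KO, and stayed within 1.5 times of that under each alternative run. With a library left out in turn they were 9, 8 and 9. Only ASNS changed direction after triptolide: with the same total per library it read 0.29 in NONT and 0.27 in EXOSC5-KO, and with median-of-ratios scaling 0.60, 0.45 and 0.55 for the 3 genotypes. These scalings remove the loss shared by all genes.

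Without the drug, 0 members called became 1 in NUP93-KO (same total, median of ratios) and 3 in EXOSC5-KO (same total, median of ratios, same mitochondrial mRNA sum). Leaving out libraries gave 0 in both knockouts on the spike-in scale, and with the same total 0 for NUP93-KO and 1 for EXOSC5-KO, an alternative added after seeing the data, as were the lists on these scales. The difference of NUP93-KO from NONT chose the set, so it was counted over all genes alone: 107 were called, 4 with no low-value filter, 1056 (9.05%) with an untreated mean of at least 50, 2 with the same total, 2 with median of ratios, 2 with the mitochondrial sum, 0 with no mean-variance trend, and 0 to 7072 (51.2%) with a library left out, the highest without NONT untreated replicate 1. For EXOSC5-KO minus NONT the count of members was 0 to 4 of 9, where up to 38.5% of all genes were called, and for EXOSC5-KO minus NUP93-KO 0 with a library left out, where the lone sample of a group is assumed to vary like the others. The causes were not tested.

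The replicate block left the counts of members at 9, 8 and 10 for triptolide, 0 for both untreated contrasts, and 0 for the differences of EXOSC5-KO from NONT and from NUP93-KO, and took the genes called for NUP93-KO minus NONT from 107 to 43. Depth limits the treated values of DDIT4, CHAC1 and DDIT3, and of both PPP1R15 genes in NONT, to few reads. The same holds for PPP1R15B in NUP93-KO and for PPP1R15A in EXOSC5-KO (about 4.38 and 18.6 reads).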
